A study of Mus musculus with 6 samples.

Results

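The genes described here are the transcription factor Nrf2 (gene Nfe2l2), its inhibitor Keap1, its competitor Bach1, its small Maf partners Maff and Mafg, and its targets Nqo1, Hmox1, Srxn1, Txnrd1 and Osgin1. They were chosen by name for their place in this pathway, with earlier results of these data known, and they are 10 of the 56305 genes in the table. All 10 passed the filter on low values, which 15430 genes passed. RNA was sequenced from whole livers of male mice of 5 weeks, 3 of them WT and 3 of them Vps15LKO (AlbCre+;Vps15 f/f), with 1 library per liver. The livers were collected at ZT6, that is 6 h after lights on, from mice fed ad libitum under a light–dark cycle. In Vps15LKO mice, Cre under the albumin promoter, which is active in hepatocytes, deletes Vps15, the regulatory subunit of class 3 PI3K. Deletion by cell type was not measured here. The genotype of the WT mice beyond that name is not given in the sources used here.

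Nrf2 is made all the time and destroyed all the time. Keap1 holds it in the cytoplasm and hands it to a Cul3 ubiquitin ligase, and electrophiles or oxidants that modify Keap1, or proteins that occupy Keap1, let newly made Nrf2 reach the nucleus. There it pairs with a small Maf protein (MafF, MafG or MafK) on antioxidant response elements, where Bach1 with a small Maf protein represses the same genes. The targets, many of them abundant in hepatocytes, encode enzymes of quinone, heme, thiol and glutathione chemistry. Transcript levels, as measured here, do not give the amount or the place of Nrf2 protein.

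Promoter windows from RefSeq (GRCm38.p6), which run from 250 bases before to 50 after a transcript start, were at hand for 9 of the 10 genes, and were searched on both strands for TGACNNNGC, the core of the antioxidant response element. Of these genes 5 held a match, over 13 windows in all (Maff and Txnrd1 have 3 each), against 12.4% of all 32851 windows and 14.0% of 27025 genes. The matches are shown because 4 of the 5 genes with one were higher in Vps15LKO livers and 1 was lower. For all tested genes the shares were 33.5% higher and 33.0% lower. Among further Nrf2 targets with a window, a match lay in 4 of 18 higher, 2 of 4 lower and 4 of 7 not called. A link between a match and the direction of change was not tested. In each line below the match to the element, on either strand, is in capitals, the sequence reads 5′ to 3′ on the strand of the gene, and only the part before the first exon is given, except for Srxn1.

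Nfe2l2 promoter: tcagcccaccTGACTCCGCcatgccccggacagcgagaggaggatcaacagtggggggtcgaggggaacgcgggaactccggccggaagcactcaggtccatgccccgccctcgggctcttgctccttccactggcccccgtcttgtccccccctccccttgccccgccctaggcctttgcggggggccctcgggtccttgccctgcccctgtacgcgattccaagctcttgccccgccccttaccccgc
Maff promoter: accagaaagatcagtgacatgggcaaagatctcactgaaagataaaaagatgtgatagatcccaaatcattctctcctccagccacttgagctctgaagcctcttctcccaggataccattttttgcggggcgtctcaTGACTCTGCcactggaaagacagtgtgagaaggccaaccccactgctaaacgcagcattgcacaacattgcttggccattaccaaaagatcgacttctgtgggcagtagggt
Mafg promoter: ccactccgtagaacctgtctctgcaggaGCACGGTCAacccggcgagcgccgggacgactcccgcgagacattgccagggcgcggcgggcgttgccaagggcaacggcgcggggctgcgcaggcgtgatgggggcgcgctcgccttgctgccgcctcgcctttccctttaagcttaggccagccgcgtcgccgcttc
Srxn1 first exon: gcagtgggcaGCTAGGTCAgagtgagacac
Txnrd1 promoter: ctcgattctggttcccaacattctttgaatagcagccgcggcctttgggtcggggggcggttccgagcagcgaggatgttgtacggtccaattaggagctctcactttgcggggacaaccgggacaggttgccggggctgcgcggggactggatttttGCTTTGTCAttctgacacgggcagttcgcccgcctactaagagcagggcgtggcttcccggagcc

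The Nfe2l2 sequence is chr2:75704664-75704913 on the minus strand, and its match TGACTCCGC begins at position −240 from the start site, inside an exon of E030042O20Rik on the other strand. The Maff sequence is chr15:79346371-79346620 on the plus strand, and its match TGACTCTGC begins at position −112. The Mafg sequence is chr11:120633601-120633797 on the minus strand, where the element lies on the other strand, from position −222, and touches an exon of Gm17586. The Srxn1 sequence is chr2:152105542-152105571 on the plus strand, in the first exon before the coding start, with the element on the other strand, 29 bases after the start site. The Txnrd1 sequence is chr10:82858956-82859178 on the plus strand, before the second of its start sites, with the element on the other strand, from position −92 of that start. No match to TGACNNNGC lay in the windows of Keap1, Bach1, Nqo1 and Osgin1. The E-box CACGTG, the motif bound by Bmal1–Clock, lay in windows of Maff (position −191 of another start) and Mafg (position −41), that is 2 of 9 genes against 8.09% of all genes. A match is a description of the letters in these windows and not evidence of binding.

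The libraries held between 16137093 and 18110223 reads on genes. The table gives normalized counts, which are reads divided by 1 size factor per library, with factors of 0.742 to 0.801 for the WT and of 1.23 to 1.41 for the Vps15LKO libraries. With scaling to equal totals instead, the middle of all tested genes moved up by 0.72 in log2, and with upper-quartile scaling by 0.12, so directions are given below relative to the deposited scaling. Pik3r4, which encodes Vps15, had 508, 573 and 460 normalized counts in WT and 341, 362 and 355 in Vps15LKO livers (log2 fold change −0.54, SE 0.11, adjusted p = 0.00207, limma), and 0.19 in log2 with total-read scaling. Of 6 hepatocyte markers 5 were lower in Vps15LKO livers and Alb was not called. Their sum ran from 2544050 to 2951090 across the WT livers and from 769285 to 1168330 across the Vps15LKO livers, in normalized counts. Most of that sum was Alb, with a mean of 2183720 for WT and 792222 for Vps15LKO. The log2 fold change of Alb was −1.48 (SE 1.38), and every Vps15LKO liver lay below every WT liver. With quantile normalization 4 of the 6 were lower, and Apoa1 (−0.45) lost its call.

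Of the 10 genes, 6 were higher and 2 lower in Vps15LKO livers and 2 were not called, at an adjusted p under 0.05 in limma and a fold of at least 1.2. The background in this comparison was high, since 66.5% of all tested genes were called, 33.5% higher and 33.0% lower. In 8 of the 10 genes the WT and Vps15LKO livers did not overlap, against 73.2% of all tested genes. The 10 genes had a median log2 fold change of 0.85, against −0.02 over every gene tested. Ordered by log2 fold change, Srxn1 was at rank 230 and Nqo1 at rank 472 of 15430 from the top. With total-read scaling all 10 genes were called higher, where 66.7% of all genes were higher and 11.1% lower.

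**Figure D1:**
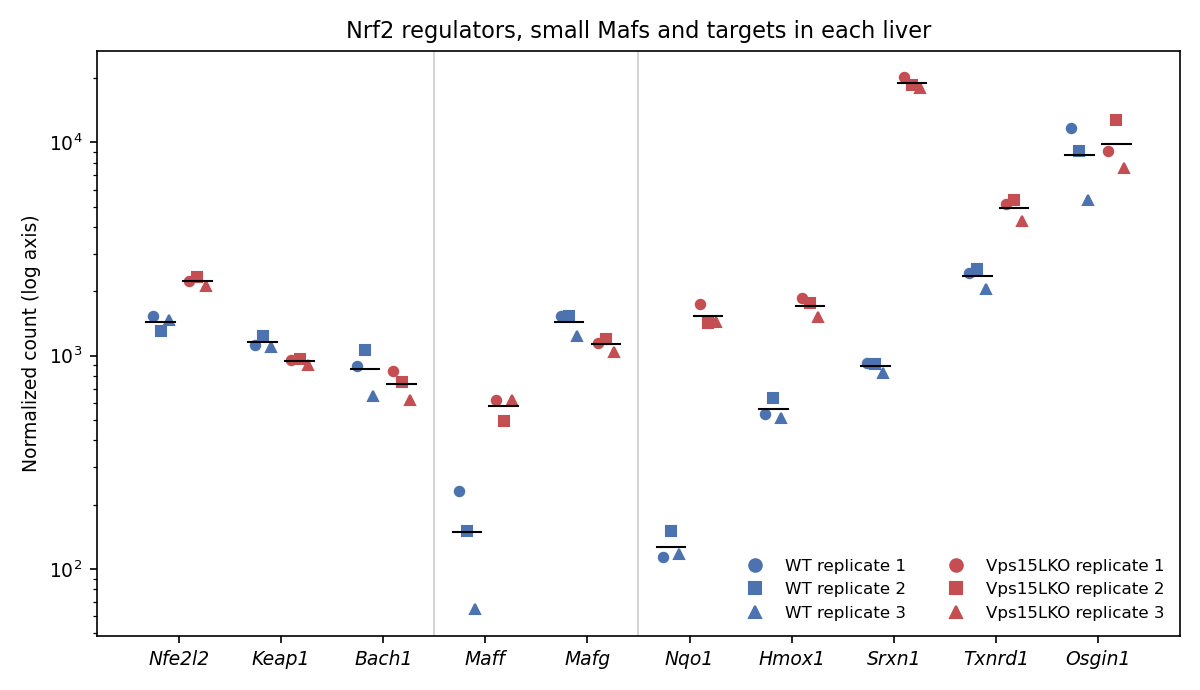
Normalized counts (log axis) of the 10 genes in each of the 6 livers, WT in blue and Vps15LKO in red, with the mean of each genotype as a bar and vertical lines between regulators, small Mafs and targets. The Vps15LKO livers lie between 17966 and 20209 for Srxn1, all above the WT livers, while for Bach1 and Osgin1 the genotypes overlap.

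Among the regulators, Nfe2l2 (ENSMUSG00000015839, chromosome 2, 75675513 to 75704641) had normalized counts of 1537, 1312 and 1469 in WT livers and of 2244, 2328 and 2112 in Vps15LKO livers. Every Vps15LKO liver lay above every WT liver, and the means differed by 1.55-fold. The log2 fold change was 0.63 (SE 0.095, 95% interval 0.41 to 0.85, adjusted p = 0.000428 in limma), and it stayed between 0.57 and 0.68 with any 1 liver left out. Nfe2l2 encodes Nrf2 itself, the activator, and its own promoter is among those with a match to the element.

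Keap1 (ENSMUSG00000003308), the adaptor that marks Nrf2 for destruction, had 1123, 1237 and 1103 normalized counts in WT and 956, 963 and 907 in Vps15LKO livers. The Vps15LKO livers were all lower, by a log2 fold change of −0.29 (SE 0.087, adjusted p = 0.0158 in limma), which turned to 0.43 with total-read scaling. The call was also lost with TMM (−0.25), upper-quartile (−0.17) and quantile (−0.05) normalization, in edgeR (−0.25) and voom (−0.25), and without WT replicate 2 (−0.24). Over 510 bases, 10.9% of its exonic length, Keap1 overlaps the antisense gene Gm16754, which had 242 to 291 reads per WT library and 358 to 454 per Vps15LKO library, and whether reads were assigned by strand is not stated in the sources used here.

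Bach1 (ENSMUSG00000025612), the repressor that competes with Nrf2 for the same elements and is released by heme, had 891, 1062 and 647 normalized counts in WT and 848, 749 and 616 in Vps15LKO livers. The genotypes overlapped, and the log2 fold change of −0.22 (95% interval −0.65 to 0.21, adjusted p = 0.336 in limma) did not pass the test. WT replicate 3 was the lowest WT liver, and without it the value was −0.41 and Bach1 was called lower, whereas with total-read scaling it was 0.51 and called higher.

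The small Mafs, which have no activation domain and take their effect from the partner they carry, changed relative to each other. Maff (ENSMUSG00000042622) had 232, 151 and 64.7 normalized counts in WT and 619, 492 and 622 in Vps15LKO livers. All Vps15LKO livers were above all WT livers, and the WT livers differed widely, with a coefficient of variation of 56.1% against a median of 12.2% over all tested genes. The log2 fold change of Maff was 2.12 (SE 0.39, 95% interval 1.23 to 3.01, adjusted p = 0.00131 in limma) and lay between 1.61 and 2.52 with any 1 liver left out.

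Mafg (ENSMUSG00000051510) had 1541, 1539 and 1242 normalized counts in WT and 1148, 1199 and 1038 in Vps15LKO livers. The Vps15LKO livers were all below the WT livers, but the lowest WT liver was close to the highest Vps15LKO liver. The log2 fold change was −0.35 (SE 0.11, adjusted p = 0.0236 in limma), and it turned to 0.38 with total-read scaling. The call was lost with upper-quartile scaling (−0.22) and quantile normalization (−0.06). It was also lost without WT replicate 1 (−0.30) or 2 (−0.30), or without Vps15LKO replicate 1 (−0.36) or 3 (−0.29). Exons of Mafg share 124 bases with Sirt7 on the same strand.

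Mafk, the other small Maf, had 361, 402 and 283 normalized counts in WT and 596, 554 and 547 in Vps15LKO livers, higher by 0.71 in log2 (SE 0.14, adjusted p = 0.00159 in limma). Shares within the family do not depend on the scaling of a library. Per exonic kilobase, Maff made up 13.6% ± 5.89 of the reads of the 3 small Mafs in WT (SD, n = 3) and 39.1% ± 3.91 in Vps15LKO livers. Mafg made up 64.2% ± 4.75 and 35.4% ± 3.34, and Mafk 22.2% ± 1.77 and 25.5% ± 0.636. Per exonic kilobase Mafg thus led in every WT liver, and Maff in Vps15LKO replicates 1 and 3. Which of the pair led in Vps15LKO livers depends on the gene length used, since the mean log2 ratio of Maff to Mafg there was 0.14 per exonic and −0.92 per coding kilobase.

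Of the 5 targets among the 10 genes, Srxn1 rose most. This gene (ENSMUSG00000032802, chromosome 2, 152105516 to 152111376) encodes sulfiredoxin, which restores over-oxidized peroxiredoxins. It had 926, 914 and 830 normalized counts in WT and 20209, 18621 and 17966 in Vps15LKO livers. The means differed by 21.3-fold, and the livers of a genotype lay close together (coefficient of variation 5.84% in WT and 6.09% in Vps15LKO). The log2 fold change was 4.41 (SE 0.10, adjusted p = 8.39e-08 in limma), the smallest adjusted p of the 10 genes.

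Nqo1 (ENSMUSG00000003849), NAD(P)H quinone dehydrogenase, the classical reporter of Nrf2 activity, had 114, 150 and 117 normalized counts in WT and 1754, 1427 and 1435 in Vps15LKO livers. The genotypes were far apart, with means that differed by 12.1-fold. On the log2 scale Nqo1 rose by 3.59 (SE 0.14, adjusted p = 4.5e-07 in limma).

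Hmox1 (ENSMUSG00000005413), heme oxygenase 1, which opens the heme ring and is held down by Bach1, had 532, 636 and 511 normalized counts in WT and 1856, 1767 and 1521 in Vps15LKO livers. The lowest Vps15LKO liver was well above the highest WT liver. The rise was 1.62 on the log2 scale (SE 0.12, adjusted p = 9.1e-06 in limma), a 3.06-fold difference of the means. Hmox1 is also an abundant transcript of liver macrophages. Of the 12 macrophage markers looked up, 10 were higher in Vps15LKO livers and none lower, beside 33.5% and 33.0% of all tested genes. Their summed normalized counts ran from 10667 to 12377 in WT livers and from 36990.5 to 40997 in Vps15LKO livers, Clec4f and Timd4 were not called, and none was at 0. Clec4f was called higher with total-read (1.12), upper-quartile (0.52) and quantile (0.76) scaling, and Timd4 lower with quantile normalization (−0.97). The part of these cells in the rise of Hmox1 was not tested. In whole liver, fewer cells of a type and less RNA per cell cannot be told apart.

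Txnrd1 (ENSMUSG00000020250), cytosolic thioredoxin reductase, had 2449, 2562 and 2060 normalized counts in WT and 5129, 5356 and 4298 in Vps15LKO livers. All Vps15LKO livers were higher, by 2.09-fold in the means and 1.06 in log2 (SE 0.13, adjusted p = 0.000114 in limma).

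Osgin1 (ENSMUSG00000074063), a growth inhibitor induced by oxidative stress, had 11712, 9133 and 5360 normalized counts in WT and 9161, 12715 and 7588 in Vps15LKO livers. The genotypes overlapped, and livers of a genotype differed widely, with coefficients of variation of 36.6% in WT and 26.7% in Vps15LKO. The log2 fold change was 0.21 (95% interval −0.46 to 0.88, adjusted p = 0.553 in limma). It turned to −0.11 without WT replicate 3, and it was called higher with quantile normalization (1.17) and total-read scaling (0.93).

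**Figure D2:**
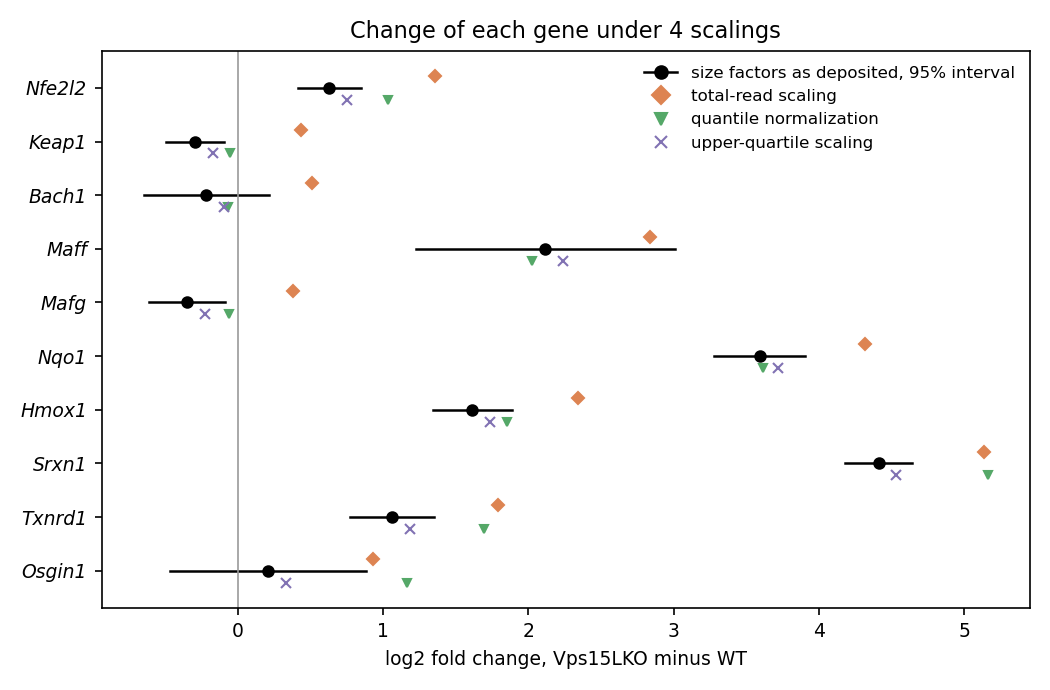
log2 fold change (Vps15LKO minus WT) of the 10 genes with the deposited size factors (black, 95% interval), total-read scaling (orange diamonds), quantile normalization (green triangles) and upper-quartile scaling (purple crosses). Nfe2l2, Maff, Nqo1, Hmox1, Srxn1 and Txnrd1 lie above 0 under all 4 scalings, whereas Keap1, Bach1 and Mafg lie below 0 except with total-read scaling.

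Levels of different genes are given per exonic kilobase, in normalized counts. Their order depends on the length used, since Mafg has 5613 exonic but 486 coding bases, and Keap1 4693 and 1872. In WT livers Osgin1 led with 3267 ± 1195 per kilobase, followed by Nfe2l2 (379 ± 30.5), Txnrd1 (333 ± 37.2), Hmox1 (320 ± 38.2) and Srxn1 (316 ± 18.4), each of them with an SD range that overlaps that of its neighbour. Mafg (257 ± 30.7) and Keap1 (246 ± 15.4) were alike within their spread, Bach1 had 140 ± 33.7, and Nqo1 (81.8 ± 12.8) and Maff (57.6 ± 32.3) were lowest (SD, n = 3 for each). In Vps15LKO livers Srxn1 led with 6713 ± 409 per kilobase, ahead of Osgin1 (3673 ± 982). Nqo1 (991 ± 120) and Hmox1 (979 ± 99.1) did not differ beyond their spread, Txnrd1 had 695 ± 78.6 and Nfe2l2 587 ± 28.7. Maff (223 ± 28.6), Mafg (201 ± 14.6) and Keap1 (201 ± 6.52) were alike within their spread, and Bach1 was lowest at 119 ± 18.8.

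Ratios of reads per exonic kilobase of a pair of genes within a library do not depend on the scaling between libraries. Nfe2l2 to Keap1, activator to inhibitor, was 1.69, 1.31 and 1.65 in WT and 2.90, 2.99 and 2.88 in Vps15LKO livers. Bach1 to Nfe2l2, repressor to activator, was 0.356, 0.497 and 0.271 in WT and 0.232, 0.198 and 0.179 in Vps15LKO livers. Neither ratio overlapped between genotypes, and the first was 1.90-fold higher and the second 1.80-fold lower in Vps15LKO livers by geometric mean. Maff to Mafg was 0.326, 0.213 and 0.113 in WT and 1.17, 0.888 and 1.30 in Vps15LKO livers. Hmox1 to Nqo1 was 4.14, 3.76 and 3.86 in WT and 0.938, 1.10 and 0.940 in Vps15LKO livers. Hmox1 thus exceeded Nqo1 in every WT liver, while in Vps15LKO livers the pair was near parity. Gene length cancels in the difference between genotypes but not in the level of a ratio.

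The ratio of Srxn1 to Txnrd1, chosen after the values were seen, was 0.950, 0.897 and 1.01 in WT and 9.90, 8.74 and 10.5 in Vps15LKO livers. Gclc to Gclm, the catalytic to the modifier subunit of the rate-limiting enzyme of glutathione synthesis, was likewise chosen after the values were seen and was 3.31, 3.06 and 2.34 in WT and 8.59, 7.73 and 8.28 in Vps15LKO livers. Per coding kilobase the mean log2 ratio in WT livers was 0.58 for Srxn1 to Txnrd1, against −0.07 per exonic kilobase, and −0.43 for Gclc to Gclm, against 1.52. All 6 ratios separated the genotypes. The 2-sided exact permutation p was 0.1 for each, the smallest that 3 livers against 3 allow and the same after adjustment over the 6 ratios, so none can pass 0.05 in this design.

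**Figure D3:**
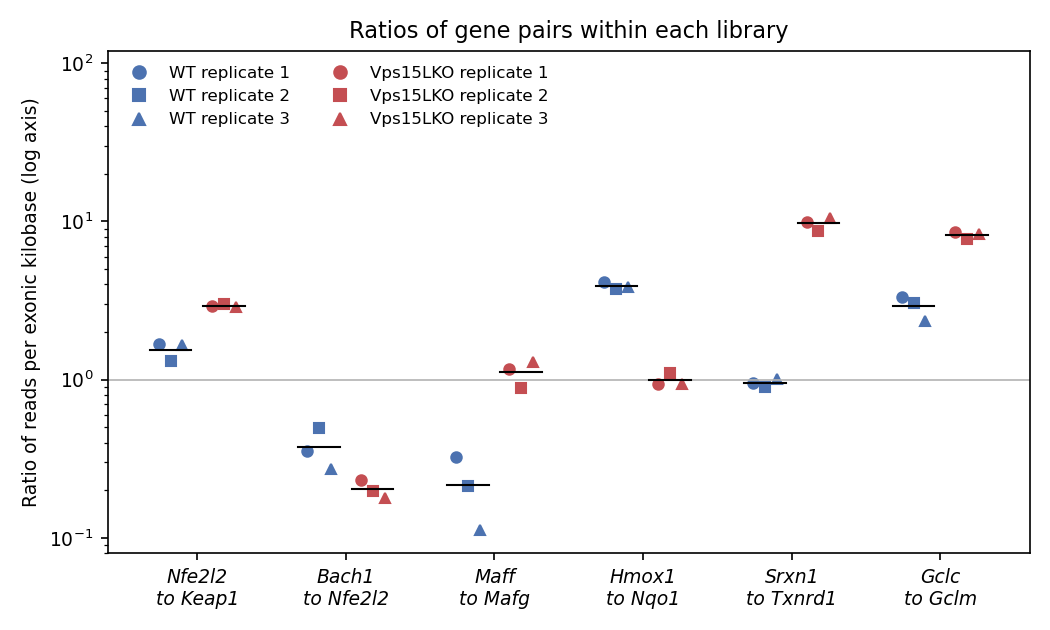
Ratio of reads per exonic kilobase (log axis) for 6 gene pairs within each library, WT in blue and Vps15LKO in red, with the mean of each genotype as a bar and a grey line at equality. The genotypes do not overlap for any pair, and Srxn1 to Txnrd1 goes from near 1 in WT to between 8.74 and 10.5 in Vps15LKO livers.

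Livers of a genotype tended to differ in the same direction across these genes. WT replicate 3 was the lowest WT liver for 8 of the 10 genes, and 38.3% of all tested genes were lowest there. Vps15LKO replicate 3 was the lowest Vps15LKO liver for 8 of the 10, against 41.2% of all tested genes. The genes of 1 liver share that liver and are not independent of each other. Leaving out any 1 liver left the 6 higher calls at 6, while the number of lower calls ranged from 0 to 3. The lower calls were 1 without WT replicate 1, 0 without WT replicate 2, and 1 each without Vps15LKO replicate 1 or 3.

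A further 13 genes of the regulatory circuit were looked up, and 4 were higher, 4 lower and 5 not called, with a median log2 fold change of −0.07. The 4 higher include Nfe2l3, which passed the filter only through the Vps15LKO livers. With every liver required to reach 20 normalized counts, 3 were higher and 4 lower, beside 3650 and 4748 of all genes that pass that filter. Over all tested genes 66.5% were called, 33.5% higher and 33.0% lower. With total-read scaling 10 of the 13 were higher and none lower, beside 66.7% and 11.1% of all tested genes. Sqstm1 encodes p62, an autophagy receptor that binds Keap1 and takes it away from Nrf2. It had 10952, 10595 and 9025 normalized counts in WT and 19130, 18332 and 18299 in Vps15LKO livers, higher by 0.87 in log2 (SE 0.14, adjusted p = 0.000563 in limma) and by 1.60 with total-read scaling. The Sqstm1 groups lay far apart, and 580 bases of its exons are shared with Mrnip on the other strand, which had 130 to 200 reads per library. Dpp3, which also binds Keap1, changed by −0.37 in log2 with the deposited scaling (adjusted p = 0.00359 in limma) and by 0.36 with total-read scaling, and its call was lost with upper-quartile (−0.25) and quantile (−0.09) normalization.

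Cul3, the scaffold of the Keap1 ligase, changed by −0.59 in log2 (adjusted p = 0.000314 in limma), from 1363, 1491 and 1367 to 968, 917 and 920 normalized counts, but by 0.14 with total-read scaling. Its RING partner Rbx1 was not called (−0.07), but was called higher with total-read scaling (0.66). Syvn1, the ligase Hrd1 of the endoplasmic reticulum that can act on Nrf2 without Keap1, had 2461, 2237 and 2848 normalized counts in WT and 1269, 1409 and 1199 in Vps15LKO livers. It changed by −0.96 in log2 (SE 0.11, adjusted p = 0.00012 in limma) and was the only one of the 13 below 0 with total-read scaling (−0.23, not called). In the second Keap1-independent route, Fbxw11 was higher by 0.32, while Btrc (−0.20) and the kinase Gsk3b (0.03) were not called. With total-read scaling both were called higher (0.53 and 0.76), and with quantile normalization Btrc was called lower (−0.29).

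Of the other cap'n'collar factors, the family of Nrf2, Nfe2l1 changed by −0.30 in log2 (adjusted p = 0.0251 in limma), and by 0.43 with total-read scaling and 0.15 with quantile normalization. Its call was lost with TMM (−0.25) and upper-quartile (−0.18) scaling, in edgeR (−0.26) and voom (−0.25), without WT replicate 1 (−0.29) or 2 (−0.25), and without Vps15LKO replicate 1 (−0.30) or 3 (−0.25). Nfe2l3 differed by 1.44 at low counts of 6.25 to 34.7, with overlapping genotypes. No p is given for Nfe2l3, since it passed the filter only through the Vps15LKO livers. Its call was lost without WT replicate 1 (1.18) or 2 (1.14), without Vps15LKO replicate 2 (1.34) or 3 (1.31), and with quantile normalization (0.16). Nfe2 and Bach2 were not called, but Nfe2 was called higher with total-read scaling (1.43) and without WT replicate 1 (1.13), and Bach2 lower with quantile normalization (−0.70). Per exonic kilobase, Nfe2l2 made up 44.7% ± 3.31 of the reads of the 4 activators in WT and 59.8% ± 0.589 in Vps15LKO livers. Nfe2l1 made up 53.8% ± 3.45 and 37.7% ± 0.492. On this scale Nfe2l2 passed Nfe2l1 in every Vps15LKO liver and in no WT liver, while Bach1 held 89.6% ± 3.71 and 90.7% ± 0.703 of the reads of the Bach pair.

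Of 35 further Nrf2 targets, chosen with earlier results of these data known, 23 were higher, 4 lower and 8 not called, with a median log2 fold change of 0.81, the same with Slc7a11 at its bound. The 23 include Slc7a11, Gpx2 and Cbr3, which no WT liver had at 20 normalized counts, so that they passed the filter only through the Vps15LKO livers and had to differ. With every liver required to reach 20 normalized counts, 19 targets were higher and 4 lower, beside 3650 and 4748 of all genes that pass that filter. With the main filter 33.5% of all tested genes were higher and 33.0% lower. With total-read scaling 30 of the targets were higher and 3 lower, beside 66.7% and 11.1% of all tested genes. In the glutathione group Gsr, Gclc and Gss were higher, Gclm was not called, and Slc7a11 and Gpx2 had to differ and are not counted. Slc7a11, the cystine carrier, had 0 reads in each WT liver and 1814, 1489 and 2269 normalized counts in Vps15LKO livers, at least 473-fold higher against a floor of 3 reads per library. Gclc was higher by 1.34 in log2 (adjusted p = 0.000526 in limma), and Gclm, at 4426 to 5374 normalized counts per WT liver and 4063 to 4782 per Vps15LKO liver, was not called (−0.17). It was called higher with total-read scaling (0.56) and quantile normalization (0.52).

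In the detoxification group 7 of 10 were higher and 2 lower, beside 33.5% and 33.0% of all tested genes. The 7 include Cbr3, which had to differ, and Gsta1, at 9.44 normalized counts in its lowest WT liver. Cbr3, a carbonyl reductase, had 11.9, 6.25 and 5.39 normalized counts in WT and 1805, 1943 and 1453 in Vps15LKO livers, a log2 fold change of 7.67 (SE 0.26). No p is given for it, since it passed the filter only through the Vps15LKO livers. Gsta3, a glutathione transferase abundant in hepatocytes, went the other way, from 35276, 31394 and 19223 to 9200, 10206 and 7858 (−1.62, SE 0.24, adjusted p = 0.000378 in limma), and Gstp1 was lower as well. Neither was called with quantile normalization (−0.44 for Gsta3 and −0.05 for Gstp1), and with total-read scaling they changed by −0.89 and −0.47. Gsta1 and Gsta2 are near-identical copies, so that reads may be split between them and their values are uncertain. Of the 6 NADPH enzymes 4 were higher and 2 lower. Pgd of the pentose phosphate pathway rose by 2.83 in log2 (SE 0.085, adjusted p = 1.87e-07 in limma), from 706 to 785 normalized counts per WT liver to 5275 to 5302 per Vps15LKO liver, while Me1, the cytosolic malic enzyme, fell by 1.33 in log2 (adjusted p = 0.000126 in limma) and Idh1 was lower too. Idh1 was not called with total-read scaling.

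Neither Txn1 nor Prdx1 of the thiol group was called. Both were called higher with quantile normalization (0.44 for Txn1 and 1.37 for Prdx1) and total-read scaling (0.70 and 0.98), and Prdx1 also with upper-quartile scaling (0.38). Of the 4 heme and iron genes 3 were higher, led by the heme carrier Slc48a1 (1413 to 1570.1 normalized counts in WT, 3960 to 4108 in Vps15LKO livers, log2 fold change 1.43, adjusted p = 3.68e-06 in limma), and Ftl1 was not called, but was called higher with quantile (1.06) and total-read (0.55) scaling. Of 4 efflux pumps Abcc4, of the sinusoidal membrane, rose from 98.1, 122 and 68.7 to 2813, 2414 and 2417 normalized counts (log2 fold change 4.74, SE 0.19, adjusted p = 5.84e-07 in limma), Abcc1 was higher, and Abcc2 and Abcc3 were not called, although both were called higher with quantile (1.05 and 0.62) and total-read (0.72 and 0.45) scaling. Ugdh and Esd were higher and Pir was not called in the remaining group, with Ugdh at 0.76 in log2 (adjusted p = 0.0177 in limma), a call lost without Vps15LKO replicate 1 (0.73). Pir was called higher with total-read scaling (0.68). Of 29 targets with a promoter window 10 held a match to TGACNNNGC, namely 4 of 18 that were higher, 2 of 4 that were lower and 4 of 7 that were not called.

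**Figure D4:**
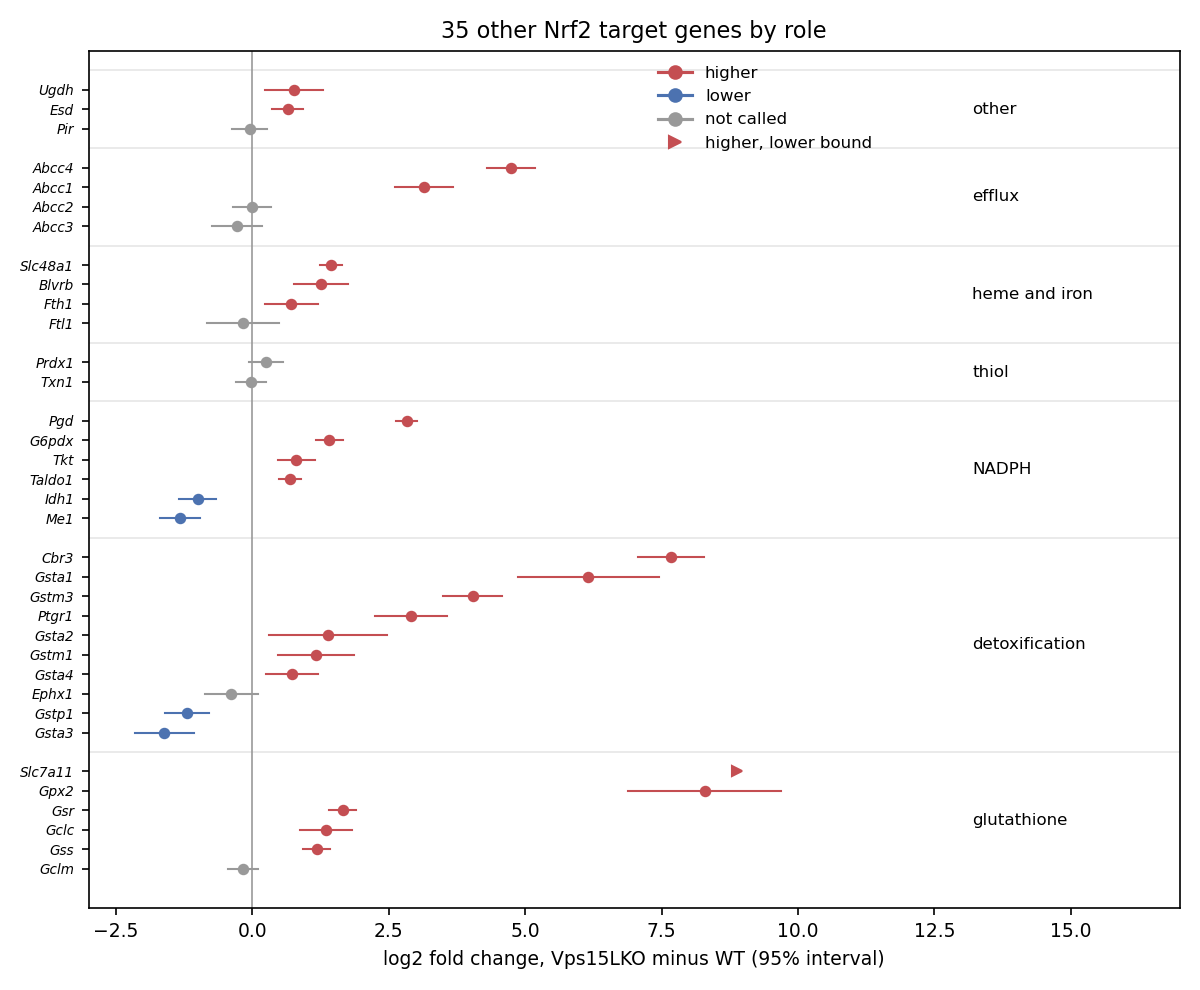
log2 fold change (Vps15LKO minus WT) with its 95% interval for 35 further Nrf2 targets by role, with called higher in red, called lower in blue and not called in grey. Slc7a11, at 0 reads in WT, is drawn as a lower bound, and the 4 blue points are Gsta3, Gstp1, Me1 and Idh1.

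Markers of other cells did not all go the same way. Of the 5 cholangiocyte markers reported here, 5 were higher, with a summed level of 662 to 787 normalized counts per WT liver and 11426 to 22425 per Vps15LKO liver, and none of the 5 was at 0 in any liver. Most of that sum was Spp1, with a mean of 551 in WT and 14767 in Vps15LKO livers (26.8-fold). The means of the others differed by 4.38-fold (Krt19), 4.95-fold (Krt7), 9.11-fold (Sox9) and 11.6-fold (Epcam). All 8 stellate markers were higher (5809 to 6016 in WT, 26590.4 to 32303 in Vps15LKO livers). Of all tested genes 33.5% were higher and 33.0% lower, and with total-read scaling 66.7% and 11.1%. Summed lymphocyte markers ran from 57.0 to 89.0 in WT and from 163 to 206 in Vps15LKO livers, and summed neutrophil markers from 9.44 to 17.2 and from 159 to 215, with Mpo and Ly6g at 0 in WT. The lymphocyte genes Cd3e, Cd8a and Nkg7 and the neutrophil genes S100a8, S100a9 and Mpo passed the filter on low values only through the Vps15LKO livers and had to differ, so their calls are not counted. Cd79a of B cells, which every WT liver had at 21.2 or more normalized counts, was not called, and was called lower with quantile normalization (−1.74). Of 6 endothelial markers 3 were higher and 3 lower (5996 to 6460 in WT, 4747 to 6254 in Vps15LKO), and of 4 erythroid markers tested none was higher and Alas2 was lower (6603 to 8874 in WT, 5447 to 7568 in Vps15LKO). With total-read scaling 4 endothelial markers were higher and none lower, Stab2 turned from −0.36 to 0.37 and was called higher, and Clec4g turned from −0.43 to 0.30. With quantile or upper-quartile scaling 3 endothelial markers were higher and 1 lower. The erythroid genes Hbb-bs (0.98), Hbb-bt (1.26) and Hba-a1 (0.88) were called higher with total-read scaling. The part of these cells in the values above was not tested.

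The genes whose values over the 6 livers lay nearest to those of Nfe2l2, by Euclidean distance of log2 values from the WT mean among 11153 genes, were Gm7367 (distance 0.0852), Pfn1 (0.110) and Pip4p2 (0.137). Pfn1, which encodes the actin-binding protein profilin, had 5055, 4402 and 4794 normalized counts in WT and 6990.5, 7390 and 7124 in Vps15LKO livers. Its log2 fold change was 0.60 against 0.63 for Nfe2l2.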

How the data were processed

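Poly(A) RNA of 3 WT and 3 Vps15LKO livers was sequenced. The authors used SOAPnuke for filtering, HISAT2 for mapping to GRCm38, featureCounts for counting and DESeq2 for normalization. Tool versions and strand and multi-mapping settings are not given in the sources used here. The deposited values are a signal, read counts divided by 1 size factor per library. Of the values above 0, 100% were whole multiples of 1 read (tolerance 0.01), so reads were recovered (16137093 to 18110223 per library). Symbols, coordinates and exonic lengths came from GENCODE M21 (55141 genes matched) and promoter windows from RefSeq GRCm38.p6.

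Genes that reached 20 normalized counts in 3 or more of the 6 livers were tested with limma 3.58.1 (trend) in R 4.3.3 on log2(normalized count + 1), with Benjamini-Hochberg adjustment over all 15430. Folds on this log2 scale understate the change of genes with few reads. Calls needed an adjusted p under 0.05 with a 1.2-fold difference or more. Each library is 1 mouse, and replicates of a genotype differed by a chi-square per gene of 13.99 to 36.37, so none was a copy. Ratios were tested by 2-sided exact permutation.

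On simulated counts (14267 genes, 200 changed by 1.5 in log2) 100% were recovered with 11 false calls. That setting had few changed genes, of random sign, and no shift in scaling between genotypes. It does not cover data where 66.5% of genes were called, nor folds near 1.2. Alternatives were pseudocounts of 0.1 and 10, other filters, scalings and thresholds, no trend, each liver left out, a replicate block, and edgeR 4.0.16 (10205 genes called), DESeq2 1.42.0 and voom on recovered reads. Members and lists were chosen with earlier results of these data known. One cholangiocyte marker of the lists is not reported here. Named genes were all members and regulators, the called target with the largest rise and fall per group, and the 3 genes nearest to Nfe2l2. Other genes named within a list were chosen after their values were seen. Tables used Python 3.11.15, pandas 2.3.3 and scipy 1.17.1.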

Additional observations from a re-analysis of the deposited data

How the results depend on the processing

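The rises of Nfe2l2, Maff, Nqo1, Hmox1, Srxn1 and Txnrd1 kept their direction under all 21 alternatives, and their call under all but a fold of at least 2, which Nfe2l2 misses. For the 6 ratios, leaving out 1 liver says nothing of stability, since the genotypes do not overlap and the direction cannot turn. The choice of exonic or coding length cannot change that difference, but it shifts the ratios themselves. With total-read scaling 10 of the members were higher and 0 lower, 10 regulators higher and 0 lower, and of all tested genes 10299 higher and 1712 lower, against 5163 and 5099 with the deposited scaling. The lower members were 1 with TMM scaling, edgeR or voom, 0 with upper-quartile scaling or quantile normalization, and 0 to 3 with 1 liver left out. Lower regulators were 2 with upper-quartile scaling, and lower targets 2 with quantile normalization. At a fold of at least 2, 0 members were lower, and 1 regulator was higher and 0 lower. That 1 was Nfe2l3, which passed the filter only through the Vps15LKO livers. Of all tested genes 5185 were then called (3228 higher, 1957 lower).

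Among the members, regulators and targets, the sign turned with total-read scaling for Keap1 (0.43), Bach1 (0.51), Mafg (0.38), Nfe2l1 (0.43), Bach2 (0.38), Cul3 (0.14), Rbx1 (0.66), Dpp3 (0.36), Btrc (0.53), Gclm (0.56), Ephx1 (0.34), Txn1 (0.70), Ftl1 (0.55), Abcc2 (0.72), Abcc3 (0.45) and Pir (0.68), which follows from its shift of all genes. It turned with quantile normalization for Nfe2 (−0.040), Nfe2l1 (0.15), Gclm (0.52), Ephx1 (0.71), Txn1 (0.44), Ftl1 (1.06), Abcc2 (1.05) and Abcc3 (0.62), and with upper-quartile scaling for Rbx1 (0.057), Txn1 (0.093), Abcc2 (0.12) and Pir (0.074). With TMM scaling, edgeR and voom it turned for Txn1 (0.015, 0.016 and 0.016) and Abcc2 (0.043, 0.045 and 0.045). With 1 liver left out it turned for Osgin1 (without WT replicate 3, range −0.11 to 0.46), Rbx1 (without WT replicate 1, range −0.13 to 0.035), Txn1 (without WT replicate 1 or Vps15LKO replicate 3, range −0.11 to 0.063), Abcc2 (without WT replicate 1 or 2 or Vps15LKO replicate 3, range −0.094 to 0.091), Pir (without WT replicate 1 or Vps15LKO replicate 3, range −0.17 to 0.049) and Gsk3b (without WT replicate 1 or 3 or Vps15LKO replicate 2, range −0.036 to 0.14). The cause of the turns outside total-read scaling was not tested. Deviations of same-numbered livers correlated at −0.0099, −0.011 and 0.049, so the numbers do not pair the mice. With the replicate block 10048 genes were called and the members stayed at 6 higher and 2 lower. With 3 livers a genotype, exact tests cannot go below 0.1, and genes at a few reads, such as Nfe2l3, are limited by depth.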
